A study of Mus musculus with 6 samples.

Results

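The 10 genes described here encode the COPII coat: the small GTPases *Sar1a* and *Sar1b*, the inner-coat subunits *Sec23a*, *Sec23b*, *Sec24a*, *Sec24b*, *Sec24c* and *Sec24d*, and the outer-coat subunits *Sec13* and *Sec31a*. They were chosen by symbol, with earlier results of these data known, and all 10 were found among the 23284 genes listed for each sample. Their counts set beside those of all genes are therefore a description and not a test. The values are FPKM, a fragment count divided by the length of the gene's transcripts and by the depth of the sample. They were measured in osteoblasts (OBs) sorted by ECFP fluorescence from ectopic bone that BMP-2 had induced, on day 10 (n = 3) and day 14 (n = 3). All 6 samples came from male *Col2.3*-ECFP mice of 12 to 16 weeks, in which a type I collagen promoter drives the cyan fluorescent protein ECFP, and the implants were collagen sponges with 2.5 μg of BMP-2. The sort left out dead cells and cells positive for the haematopoietic marker CD45. Collagenase digestion was run 1 time for day 10 but 2 times for day 14, and its number and the day cannot be told apart. The titles place 3 samples on day 14, while the descriptions of replicates 2 and 3 give day 15 and day 16, and the titles were used. The titles call the replicates biological, but how many mice went into a sample is not given in the sources used here, so p-values measure only the spread between these samples.

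COPII vesicles carry newly made proteins from the endoplasmic reticulum (ER) to the Golgi. Sar1 binds GTP and inserts into the ER membrane, Sec23 and Sec24 join as the inner coat, with Sec24 holding cargo, and Sec13 and Sec31 form the outer cage. Bone is a demanding tissue for this route, because OBs secrete procollagen, which is too long for an ordinary vesicle. Inherited variants of the human *SEC23A* gene cause a craniofacial disorder with late-closing fontanelles, and those of *SEC24D* cause a form of osteogenesis imperfecta.

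The number of mapped reads, estimated from the steps between low FPKM values, ran from 4506249 to 7732754 per sample. With 3 reads per 1000 bases as a floor, this corresponds to between 0.388 and 0.666 FPKM, for counting error only. Every COPII gene was far above it, with between 167 and 4451 estimated reads per gene and sample. The 8 OB markers were all above 0 FPKM in each sample. Their sum, mostly *Col1a1*, *Col1a2* and *Ibsp*, was 39658 to 76090 FPKM on day 10 and 26359 to 53314 FPKM on day 14. The sort used a type I collagen promoter, so a high *Col1a1* level is no independent check of the OB label. Replicate 2 of day 14 stood apart from the other day 14 samples. Its 10 chondrocyte markers summed to 2464 FPKM, against 234 and 173 FPKM in replicates 1 and 3 and 769 to 1595 FPKM on day 10. The 9 myeloid markers summed to 20.2 FPKM in that sample, 262 and 615 FPKM in the other day 14 samples and 36.1 to 161 FPKM on day 10. *Ptprc*, which encodes the haematopoietic marker CD45, was between 0.134 and 2.99 FPKM in the 6 samples. The 6 osteoclast markers, mostly *Ctsk*, summed to 446 to 489 FPKM on day 10 and 627 to 675 FPKM on day 14. *Calcr*, which encodes the calcitonin receptor of osteoclasts, was at most 0.338 FPKM. The 6 endothelial markers reached 7.20 FPKM, the 5 skeletal muscle markers 9.12 FPKM and the 4 adipocyte markers 30.7 FPKM in sum in any sample. Markers at 0 FPKM in at least 1 sample were *Emr1* and *Fcer1g* (myeloid), *Emcn* (endothelial), *Ckm*, *Myh4*, *Myl1* and *Tnnt3* (muscle) and *Adipoq*, *Plin1* and *Cfd* (adipocyte). The OB marker *Ibsp* was between 10072 and 25254 FPKM on day 10, compared with 3460.1, 15632 and 1293 FPKM in the day 14 samples. *Sp7* was at 73.7, 51.1 and 40.1 FPKM in the day 10 samples, compared with 9.79, 27.9 and 4.09 FPKM in the day 14 samples. Among the 8 OB markers, only *Sp7* had days that did not overlap. The part of these markers in the differences between the days was not tested. In sorted samples, fewer cells of a type and less RNA per cell cannot be told apart.

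In the GENCODE vM21 annotation of mm10 (GRCm38), *Sec13* lies on chromosome 6 from 113728062 to 113740743, *Sec31a* on chromosome 5 from 100361649 to 100416234 and *Sec23a* on chromosome 12 from 58958383 to 59012017. *Sec23b* lies on chromosome 2 from 144556229 to 144590749, *Sec24c* on chromosome 14 from 20674308 to 20694852 and *Sar1a* on chromosome 10 from 61680299 to 61693297. *Sec24d* (from 123267455 to 123365641) and *Sec24b* (from 129982759 to 130061553) both lie on chromosome 3. *Sec24a* (from 51692264 to 51763634) and *Sar1b* (from 51763687 to 51791925) are neighbours on chromosome 11 in opposite orientations, with annotated starts 53 bases apart. All 10 genes are protein-coding. The paralogs could be told apart by their reads, since no stretch of 75 bases, the read length, in the longest coding transcript of a COPII gene occurred in another COPII gene. *Sec24c* shared 71 of 4387 such stretches with the antisense gene *6230400D17Rik*, which reached 0.696 FPKM, and reads from these stretches cannot be assigned to 1 of the pair without strand. The span of *Sec23a* overlaps that of the antisense gene *Gm17529* by 9629 bases, with 0 of 4035 stretches of its longest coding transcript shared.

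Promoter windows of the 10 genes were taken from RefSeq (GRCm38.p6), since 8 of these genes had a lower mean on day 14. Windows reach from 250 bases before to 50 bases after an annotated start, and 12 windows were found for the 10 genes. The sequence TGACGTG, searched on both strands, resembles sites bound by CREB3-family factors, a group of ER-bound transcription factors, and lies in 2.01% of all 32851 windows. Among the COPII genes it was found in *Sec23a* and *Sec24d*. Its core ACGTG was in 19.6% of all windows and in 9 of the 12 COPII windows, from 8 genes (all except *Sec23b* and *Sar1b*). The 50 bases after the start were added to the search after the sequences were seen, and the matches shown for *Sec13*, *Sec31a* and *Sec23a* lie in or reach into them, so nothing is read from this count. CCACG, which overlaps the core in several of them, was in 32.8% of all windows and in 8 of the 12, and TGACGTCA was in 1.79% of all windows and in none of the 12. Within the 250 bases before the start alone, the shares of all windows were 1.65% for TGACGTG, 16.6% for ACGTG, 28.3% for CCACG and 1.55% for TGACGTCA, and the COPII genes with a match numbered 1, 6, 5 and 0. A match describes the letters only. Stretches of 30 bases, given 5′ to 3′ on the strand of the gene with ACGTG or its reverse complement in capitals, are given here for the 4 genes with the lowest fold change from day 10 to day 14, and for *Sar1a*, whose means on the days were close.
Sec13: gttttgagctgcCACGTccgaggccgtggg
Sec31a: ggctgcggctgcCACGTtggagcggagcgt
Sec23a: tcctcccctttgACGTGgcagaggcggcac
Sec24d: cccgggcgcctgACGTGgcactagcaaccc
Sar1a: agggggcggggcACGTGcgtgcccggaagt
These lie at chr6:113740665-113740694, chr5:100416203-100416232 and chr12:59011992-59012021 on the minus strand, and at chr3:123267460-123267489 and chr10:61680267-61680296 on the plus strand. The first capital is at base −1, 15, 9, −24 and −6 in the order printed, with the annotated RefSeq start counted as base 1 and no base 0. By the GENCODE spans given above, whose starts can differ from those of RefSeq, the stretches of *Sec13*, *Sec31a* and *Sec24d* lie inside the genes. That of *Sec23a* lies partly inside and that of *Sar1a* outside. *Sec23a* and *Sec24d* hold TGACGTG, while *Sar1a*, with close means on the days, holds the core as well.

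The level of the 10 genes in OBs ran from a mean of 199 FPKM for *Sar1a* to 6.69 FPKM for *Sec24a* over the 6 samples. *Sar1a* and *Sec13* (mean 193 FPKM) were the highest, with ranges that overlapped. *Sar1a* was above *Sec13* in 3 of the 6 samples, which were those of day 14, and below it in each day 10 sample. This change of order was not tested. *Sec31a* (142 FPKM) came next and was below *Sec13* in all 6 samples. *Sec24d* (96.0 FPKM) was below *Sec31a* in every sample, though the ranges of both over all samples overlapped. *Sec23a* (55.5 FPKM) and *Sar1b* (47.7 FPKM) overlapped in range, with *Sec23a* higher within each of the 6 samples. *Sec23b* (23.4 FPKM) and *Sec24c* (17.5 FPKM) overlapped likewise, with *Sec23b* higher within each sample. *Sec24b* (9.54 FPKM) and *Sec24a* (6.69 FPKM) were the lowest, again overlapping in range and in the same order within each sample.

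**Figure D1:**
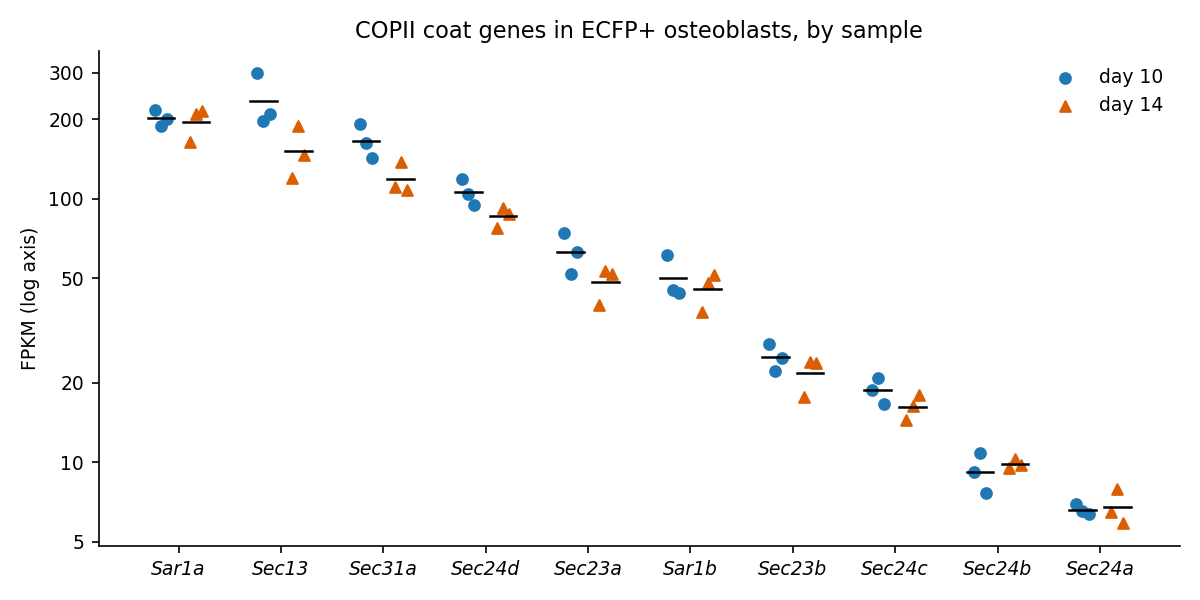
FPKM of the 10 COPII genes on a log axis, with circles for the 3 day 10 samples, triangles for the 3 day 14 samples and bars for the day means. The levels span from 5.88 FPKM for *Sec24a* to 299 FPKM for *Sec13*, and the days are fully apart for *Sec13*, *Sec31a* and *Sec24d*.

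Each family had 1 dominant paralog in these OBs. *Sec24d* made up 71.8% to 77.3% of the summed Sec24 FPKM in a sample. *Sec24c* made up 12.2% to 14.8%, *Sec24b* 5.95% to 8.80% and *Sec24a* 4.50% to 6.26%. *Sec23a* held 68.5% to 72.5% of the Sec23 sum and *Sar1a* 78.0% to 82.0% of the Sar1 sum. Summed over paralogs, Sar1 was the most abundant on day 14 (241 ± 34.8 FPKM, SD, n = 3) and Sec23 the least (69.9 ± 11.1 FPKM, SD, n = 3).

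Between the days, 8 of the 10 COPII genes had a lower mean log2 level on day 14, against 53.5% of the 19526 genes tested and 48.8% of the 11162 genes with a mean above 1 FPKM. The summed level of all 10 genes was 1025, 810.2 and 810.1 FPKM in replicates 1, 2 and 3 of day 10. On day 14 it was 597, 787 and 716 FPKM, so that each day 14 sample was below each day 10 sample. The genes of highest level weigh most in this sum. *Sec13* had means of 235 and 151 FPKM and *Sec31a* of 166 and 119 FPKM on day 10 and day 14. The Sar1 sum had means of 252 and 241 FPKM, with days that overlapped. The adjusted p of the 10 genes from limma was 0.422 to 0.989, so that none passed 0.05, which 3 of all genes tested (0.0154%) did. At an unadjusted p under 0.05 from limma, 2 of the 10, *Sec13* and *Sec31a*, were lower on day 14 and none was higher. This compares with 4.40% lower and 5.60% higher, together 10.0%, among all genes tested, and with 6.15% lower, and 15.3% in either direction, among genes with a mean above 1 FPKM. In 3 of the 10 every day 14 sample was below every day 10 sample, and in none above, against 6.67% and 7.59% of all genes tested, and 8.92% below among genes with a mean above 1 FPKM. The median log2 fold change of the 10 was −0.21, against −0.04 for all genes tested and 0.01 for genes with a mean above 1 FPKM. Without replicate 1 of day 14 the medians of the 10 and of all genes tested were −0.09 and −0.10. The 10 genes then did not lie below all genes, and the median of genes above 1 FPKM was not computed for this fit. No COPII gene differed by more than 2-fold, as 13.6% of all genes tested did. That share includes genes below 1 FPKM, and it was not computed for genes with a mean above 1 FPKM.

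**Figure D2:**
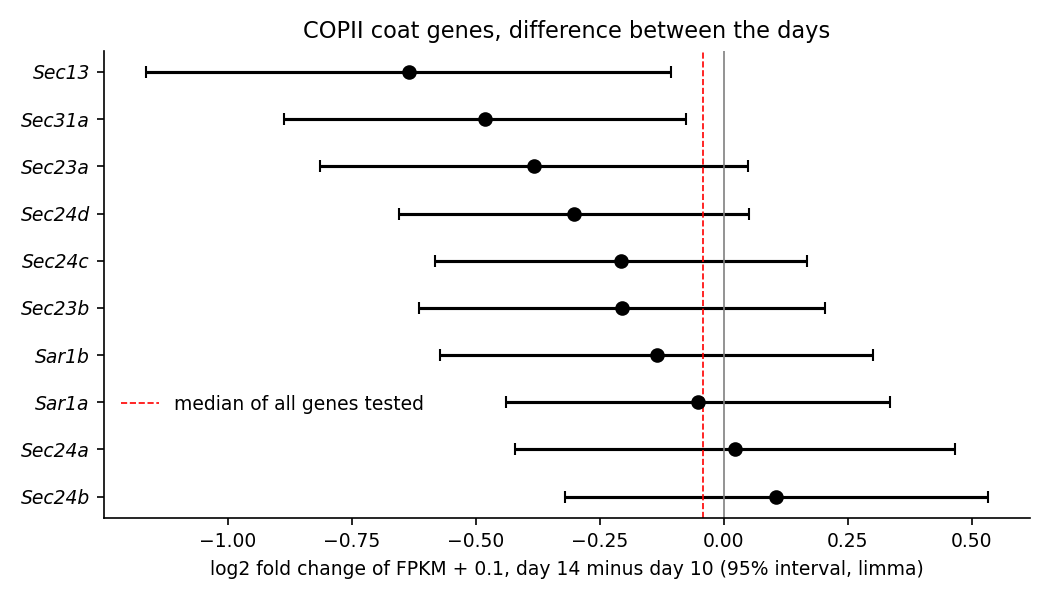
Log2 fold change of FPKM + 0.1, day 14 minus day 10, for the 10 COPII genes, with points for the estimate and bars for the 95% interval from limma (n = 3 per day), the solid line at 0 and the dashed line at the median of all genes tested. The intervals of *Sec13* and *Sec31a* lie below 0 before adjustment, and those of the other 8 genes include 0.

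*Sec13* encodes a propeller subunit of the outer cage that also serves in the nuclear pore. Replicates 1, 2 and 3 had 299, 198 and 209 FPKM on day 10, compared with 119, 188 and 146 FPKM on day 14. The highest day 14 sample was below the lowest day 10 sample by a small margin, and replicate 1 of each day lay at the extremes. The log2 fold change was −0.64 (standard error 0.23, 95% interval −1.16 to −0.11, unadjusted p = 0.0240 and adjusted p = 0.422 from limma), a day 14 level of 0.644 times that of day 10. The two-sided exact permutation test gave p = 0.1, the smallest that 3 samples against 3 allow.

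*Sec31a* encodes the rod of the outer cage, which also speeds up GTP hydrolysis by Sar1. It was at 192, 163 and 143 FPKM in the day 10 samples, compared with 111, 138 and 107 FPKM in the day 14 samples. The days did not overlap, with replicate 2 of day 14 close to replicate 3 of day 10. The log2 fold change was −0.48 (standard error 0.18, 95% interval −0.89 to −0.08, unadjusted p = 0.0253 and adjusted p = 0.425 from limma; two-sided exact permutation test, p = 0.1).

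*Sec24d*, the main cargo-binding subunit here, was at 119, 104 and 94.9 FPKM in the day 10 samples, compared with 77.4, 92.4 and 87.8 FPKM in the day 14 samples. The days were fully apart, with a gap between 92.4 and 94.9 FPKM that was smaller than the spread within either day. The log2 fold change was −0.30 (standard error 0.15, 95% interval −0.66 to 0.05, adjusted p = 0.572 from limma; two-sided exact permutation test, p = 0.1). *Sec24c*, its closest relative, was at 18.8, 20.9 and 16.7 FPKM in the day 10 samples, compared with 14.4, 16.4 and 18.0 FPKM in the day 14 samples. Its days overlapped in 1 day 14 sample, replicate 3, and the log2 fold change was −0.21 (95% interval −0.58 to 0.17, adjusted p = 0.750 from limma).

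*Sec24a* and *Sec24b*, the other pair of cargo-binding subunits, had slightly higher means on day 14 than on day 10, in contrast to the other 8 genes. *Sec24a* was at 6.93, 6.53 and 6.37 FPKM in the day 10 samples, compared with 6.47, 7.95 and 5.88 FPKM in the day 14 samples, where replicates 2 and 3 were the highest and the lowest of all 6 samples. *Sec24b* was at 9.17, 10.9 and 7.65 FPKM in the day 10 samples, compared with 9.49, 10.3 and 9.76 FPKM in the day 14 samples, all within the range of day 10. The log2 fold changes were 0.02 (95% interval −0.42 to 0.47) and 0.11 (95% interval −0.32 to 0.53), with adjusted p of 0.989 and 0.909 from limma. Without replicate 3 of day 10 both directions turned (−0.0036 and −0.020), and that of *Sec24a* also turned without replicate 2 of day 14 (−0.10) and with FPKM scaled to its sum (−0.0034).

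*Sec23a* encodes the main GTPase-activating subunit of the inner coat in these cells. It was at 74.0, 51.7 and 63.0 FPKM in the day 10 samples, compared with 39.5, 53.2 and 51.7 FPKM in the day 14 samples. The days overlapped, since replicate 2 of day 10 was below 2 of the day 14 samples. The log2 fold change was −0.38 (standard error 0.19, 95% interval −0.81 to 0.05, adjusted p = 0.556 from limma; two-sided exact permutation test, p = 0.3). Its paralog *Sec23b* was at 28.1, 22.2 and 24.9 FPKM in the day 10 samples, compared with 17.7, 24.0 and 23.8 FPKM in the day 14 samples. Only replicate 1 of day 14 lay below the day 10 range, and the log2 fold change was −0.21 (95% interval −0.62 to 0.20, adjusted p = 0.779 from limma). Without that sample it was −0.06, and that of *Sec23a* was −0.25.

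The GTPase gene *Sar1a*, which encodes the switch that starts coat assembly, was at 217, 189 and 200.4 FPKM in the day 10 samples, compared with 164, 209 and 215 FPKM in the day 14 samples. Both day 14 replicates 2 and 3 lay within the day 10 range, while replicate 1 was below it. Its log2 fold change was −0.05 (95% interval −0.44 to 0.34, adjusted p = 0.960 from limma), and the interval includes differences in either direction. *Sar1b*, whose human counterpart is needed for the export of chylomicrons from the gut, was at 61.1, 45.0 and 44.0 FPKM in the day 10 samples, compared with 37.2, 47.9 and 51.2 FPKM in the day 14 samples. Its days overlapped in the same way (log2 fold change −0.14, 95% interval −0.57 to 0.30, adjusted p = 0.876 from limma). The direction of both GTPases turned without replicate 1 of day 10 (0.0020 and 0.017) or without replicate 1 of day 14 (0.071 and 0.0013).

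The 2 samples numbered 1 carried much of these patterns. Replicate 1 of day 10 was the highest sample for 7 of the 10 genes, as it was for 18.4% of all genes tested, and replicate 1 of day 14 was the lowest for 7, as it was for 16.6% of all genes tested. Without replicate 1 of day 10, without replicate 1 of day 14 or without replicate 3 of day 14, none of the 10 genes had an unadjusted p under 0.05 from limma, against 4.86%, 13.7% and 7.00% of all genes in these fits. Without replicate 1 of day 10 the log2 fold changes of *Sec13* and *Sec31a* were −0.45 (adjusted p = 0.976) and −0.37 (adjusted p = 0.976), and without replicate 1 of day 14 they were −0.48 (adjusted p = 0.449) and −0.44 (adjusted p = 0.400), from limma. Without replicate 3 of day 14 they were −0.62 and −0.41 (unadjusted p = 0.0644 and 0.0831 from limma). Without replicate 2 of day 14, the sample with the highest chondrocyte markers, they were −0.81 and −0.59, with adjusted p of 0.231 and 0.242 from limma. This sample also had the highest summed OB markers of day 14. *Sec13*, *Sec31a*, *Sec24d*, *Sec23a*, *Sec23b*, *Sec24a* and *Sec24b* had their highest day 14 value in it, and *Sec24c*, *Sar1a* and *Sar1b* in replicate 3. The share of all genes with their highest day 14 value there was not computed, and a link to the markers was not tested. Over all 6 samples it was the highest for 1 of the 10 genes, as it was for 13.6% of all genes tested.

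Ratios within a sample do not depend on the scaling between samples. Of 5 ratios tested, 1 had days that did not overlap. *Sec23a* was 2.63, 2.33 and 2.53 times *Sec23b* in replicates 1, 2 and 3 of day 10, and 2.23, 2.21 and 2.17 times in those of day 14. The mean log2 ratio was 1.32 ± 0.0891 (SD, n = 3) in day 10 OBs and 1.14 ± 0.0186 (SD, n = 3) in day 14 OBs, a difference of −0.18 (exact permutation test, two-sided p = 0.1, which is the lowest possible value, adjusted p = 0.5 over the 5 ratios). The day 14 samples lay close together, and the difference stayed between −0.23 and −0.14 when each sample was left out in turn. In shares, *Sec23b* held 28.6% ± 1.26 (SD, n = 3) of the Sec23 FPKM in day 10 OBs and 31.2% ± 0.284 (SD, n = 3) in day 14 OBs. Shares of the Sec24 sum, which were not tested, were also apart between the days for *Sec24d* and *Sec24b*. *Sec24d* held 73.1% to 77.3% on day 10 and 71.8% to 72.7% on day 14. *Sec24b* held 5.95% to 7.63% on day 10 and 8.04% to 8.80% on day 14. The shares of *Sec24a*, *Sec24c* and the Sar1 genes overlapped between the days.

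The other 4 ratios overlapped between the days. *Sec13* was 1.21 to 1.56 times *Sec31a* on day 10 and 1.08 to 1.36 times on day 14. It was thus the higher of these outer-coat partners in each sample. The difference of the log2 ratio between the days was −0.15 (two-sided exact permutation test, p = 0.4). *Sec24d* was 4.97 to 6.30 times *Sec24c* on day 10 and 4.87 to 5.61 times on day 14 (difference −0.09, two-sided exact permutation test, p = 0.4). *Sar1a* was 3.55 to 4.55 times *Sar1b* on day 10 and 4.19 to 4.40 times on day 14 (difference 0.08, two-sided exact permutation test, p = 0.6). *Sec24a* was below *Sec24b* in all 6 samples, at 0.604 to 0.834 times its level (difference −0.08, two-sided exact permutation test, p = 0.8). The adjusted p over the 5 ratios was at least 0.5.

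**Figure D3:**
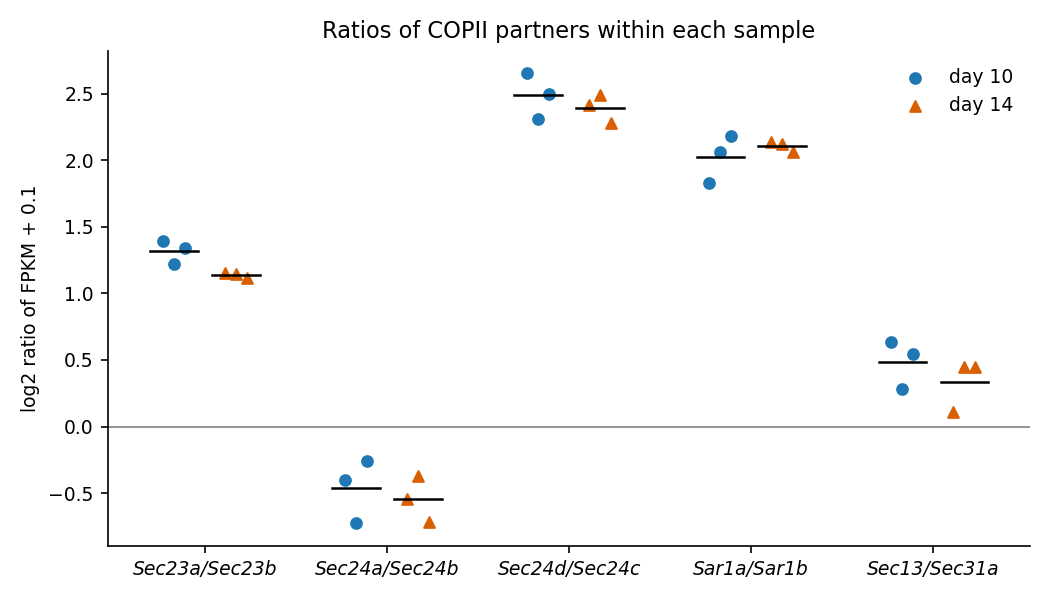
Log2 ratio of FPKM + 0.1 for 5 pairs of COPII genes, with circles for the 3 day 10 samples, triangles for the 3 day 14 samples and bars for the day means. The day 14 samples of Sec23a/Sec23b, between 1.12 and 1.15, all lie below the day 10 samples, while the days overlap in the other 4 pairs.

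Other genes of the ER-to-Golgi route were examined as 4 lists, with 65 genes in all. Of these, 45 had a lower and 20 a higher mean log2 level on day 14. Lower means were found in 53.5% of all genes tested and in 48.8% of those above 1 FPKM. The lists were likewise chosen with earlier results of these data known, so their counts are a description and not a test. The smallest adjusted p in the lists was 0.309 from limma. At an unadjusted p under 0.05 from limma, 10 were lower and 2 higher, against 4.40% and 5.60% of all genes tested. All listed genes except *Mia2* and *Sec31b* had a mean above 1 FPKM. Among all genes above that level, 6.15% were lower at this p and 15.3% differed in either direction. In the list of 15 exit-site factors and regulators, 3 were lower and 1 higher by that measure, and the median log2 fold change was −0.14. *Creb3l1* encodes OASIS, an ER-bound CREB3-family factor known for its role in collagen production by OBs. It was at 193, 124 and 114 FPKM in the day 10 samples, compared with 56.9, 90.6 and 69.3 FPKM in the day 14 samples, and the days were well apart. The log2 fold change from limma was −0.98 (standard error 0.25, unadjusted p = 0.00392 and adjusted p = 0.309 from limma), 0.509 times the level of day 10.

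*Creb3l2* encodes the related factor BBF2H7, known as an activator of *Sec23a* in cartilage. It was at 15.5, 18.4 and 21.7 FPKM in the day 10 samples, compared with 25.0, 27.8 and 30.9 FPKM in the day 14 samples, all above day 10. The log2 fold change of this gene was 0.60 (standard error 0.17, unadjusted p = 0.00863 and adjusted p = 0.340 from limma), opposite in sign to that of *Creb3l1* and to that of *Sec23a*. *Preb*, which encodes Sec12, the exchange factor that loads Sar1 with GTP, went from a mean of 16.6 FPKM to 11.6 FPKM (log2 fold change −0.52, adjusted p = 0.437 from limma), and 1 day 14 sample overlapped with day 10. *Sec16b*, one of the genes for the Sec16 scaffold of exit sites, went from 14.4 to 10.5 FPKM (log2 fold change −0.44, adjusted p = 0.494 from limma), also with overlap. The main scaffold gene *Sec16a* had means of 17.0 and 16.7 FPKM. *Mia3*, which encodes the procollagen receptor TANGO1 of exit sites, had means of 27.8 and 24.5 FPKM (log2 fold change −0.18, adjusted p = 0.785 from limma). Its partner gene was listed under an older symbol, *Ctage5*, with means of 15.4 and 13.7 FPKM. *Sec31b*, the paralog of *Sec31a*, was at most 0.647 FPKM.

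**Figure D4:**
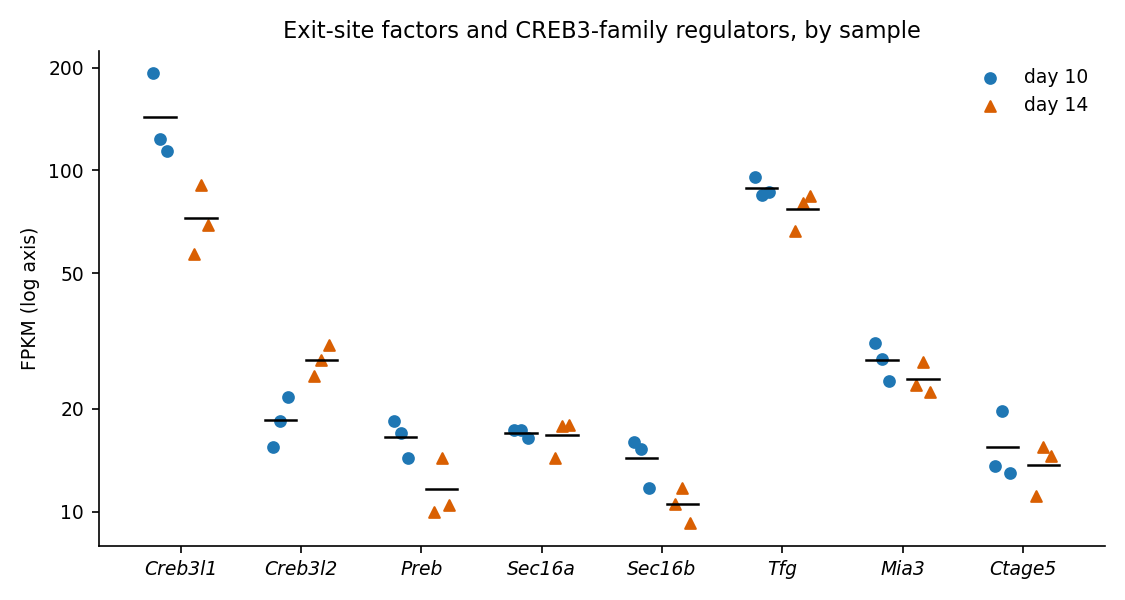
FPKM of 8 exit-site factors and regulators on a log axis, with circles for the 3 day 10 samples, triangles for the 3 day 14 samples and bars for the day means. *Creb3l1* was lower and *Creb3l2* higher in each day 14 sample than in each day 10 sample, and the days overlap for the others except *Tfg*, whose highest day 14 value of 84.1 FPKM is just below its lowest day 10 value of 84.6 FPKM.

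The 18 cargo receptors, which collect proteins for the coat, were mixed, with 11 higher and 7 lower on day 14 and a median log2 fold change of 0.05. Of all genes tested 53.5% were lower, and of those above 1 FPKM 48.8%. *Lman1*, the lectin receptor ERGIC-53, was at 163, 136 and 131 FPKM in the day 10 samples, compared with 76.9, 130.5 and 101 FPKM in the day 14 samples (log2 fold change −0.51, unadjusted p = 0.0414 and adjusted p = 0.476 from limma). *Tmed9*, of the p24 family, also had a lower mean (log2 fold change −0.77, unadjusted p = 0.0316 and adjusted p = 0.445 from limma), with 1 day 14 sample at 114 FPKM within the day 10 range. Its relative *Tmed5* was higher in all day 14 samples (6.61 to 10.2 FPKM in the means, log2 fold change 0.62, unadjusted p = 0.0231 and adjusted p = 0.416 from limma).

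Of the 18 tethers and SNAREs, which dock and fuse the vesicles, 15 had a lower mean on day 14, against 53.5% of all genes tested and 48.8% of those above 1 FPKM, with a median log2 fold change of −0.25. Of these, 3 had an unadjusted p under 0.05 from limma. *Trappc1*, a core subunit of the TRAPP tether, was at 49.4, 43.6 and 43.5 FPKM in the day 10 samples, compared with 34.2, 30.1 and 29.2 FPKM in the day 14 samples (log2 fold change −0.54, unadjusted p = 0.00466 and adjusted p = 0.314 from limma). *Golga2*, the golgin GM130, had a log2 fold change of −0.47 (unadjusted p = 0.0148 and adjusted p = 0.377 from limma), and *Scfd1*, the SNARE regulator Sly1, one of −0.43 (unadjusted p = 0.0190 and adjusted p = 0.400 from limma). In both, every day 14 sample was below every day 10 sample. The COPI coat and KDEL receptors, which return proteins from the Golgi to the ER, had a lower mean on day 14 in 13 of 14 genes, with the same background, and a median log2 fold change of −0.33. Every day 14 sample was below every day 10 sample in 7 of these 14 genes, in 2 of the 15 exit-site factors, 2 of the 18 cargo receptors and 5 of the 18 tethers and SNAREs, against 6.67% of all genes tested and 8.92% of those above 1 FPKM. Every day 14 sample was above in 0, 1, 2 and 1 genes of these lists, against 7.59% of all genes tested. *Kdelr1* (log2 fold change −0.39, unadjusted p = 0.0233) and *Kdelr3* (log2 fold change −0.45, unadjusted p = 0.0475), receptors for escaped ER chaperones, were the 2 of the 14 with an unadjusted p under 0.05 from limma, with adjusted p of 0.419 and 0.495.

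**Figure D5:**
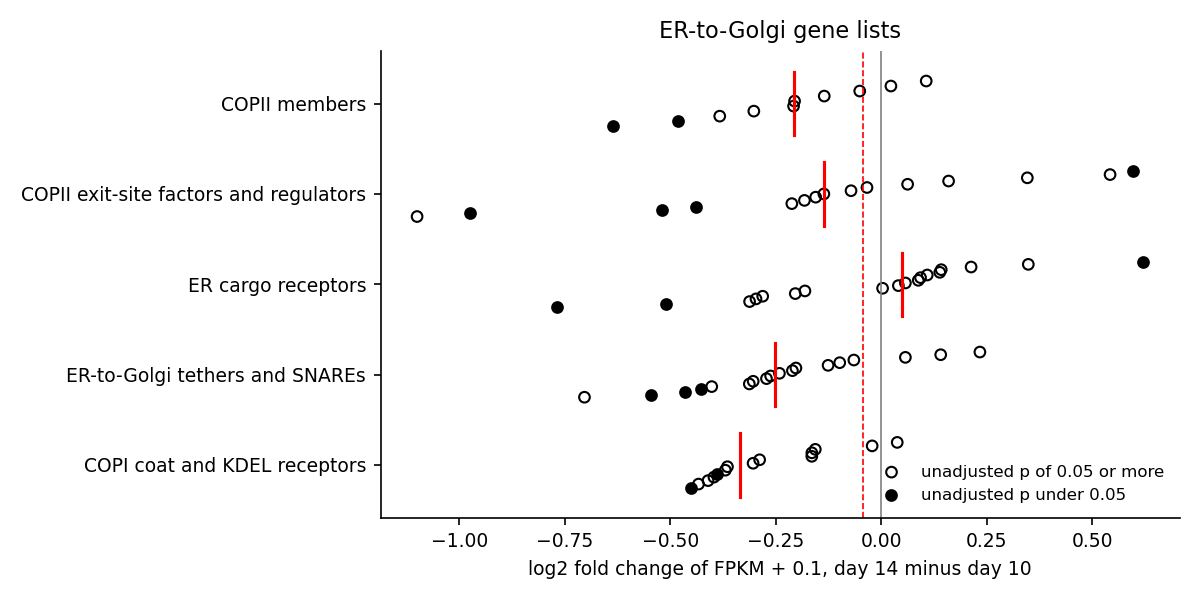
Log2 fold change of FPKM + 0.1, day 14 minus day 10, for each gene of the COPII coat and the 4 other lists, with filled points for an unadjusted p under 0.05 from limma, red bars for the list medians and the dashed line for the median of all genes tested. The list medians are −0.21 for the COPII genes, −0.14 for exit-site factors and regulators, 0.05 for cargo receptors, −0.25 for tethers and SNAREs and −0.33 for the COPI list.

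The number of genes below an unadjusted p of 0.05 in these 4 lists was 12 with all samples, 7 without replicate 1 of day 10 and 5 without replicate 3 of day 14. The share of all genes tested below it was 10.0%, 4.86% and 7.00% in the same fits. Without replicate 1 of day 14 the count was 11 and the share 13.7%. Without replicate 2 of day 14 they were 12 and 12.8%. Without replicate 2 of day 10 they were 8 and 7.12%, and without replicate 3 of day 10 they were 10 and 9.97%. The count thus did not follow the share in every fit. Among genes with a mean above 1 FPKM the share was 15.3% with all samples, and it was not computed for the other fits. The direction of *Creb3l1* and *Creb3l2* held with each sample left out, with log2 fold changes of −1.15 to −0.74 and of 0.48 to 0.72.

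The genes whose pattern over the 6 samples was most like that of *Sec24d* and *Sec23a* were sought among 11162 genes with a mean of at least 1 FPKM. The measure was the root mean square difference of the log2 values, each gene centred on its own mean. For *Sec24d* the closest were *Ddb1*, a DNA damage-binding protein (0.0217), *Pde4dip*, a scaffold protein of the centrosome and Golgi (0.0321), and *Erp29*, an ER chaperone (0.0419). *Ddb1*, the closest, was at 168, 153 and 138 FPKM in the day 10 samples, compared with 111, 134 and 129 FPKM in the day 14 samples. *Erp29* was at 121, 103 and 99.8 FPKM in the day 10 samples, compared with 81.3, 97.2 and 94.7 FPKM in the day 14 samples. For *Sec23a* the closest were *Ncoa6*, a nuclear receptor coactivator (0.0439), *Dpy30*, a subunit of histone methyltransferase complexes (0.0481), and *Rgs19*, a regulator of G-protein signalling (0.0565). With 6 values per gene, how close a match would arise among 11162 unrelated genes was not tested, and neither was a shared regulation.

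*Col1a1*, the main cargo gene of OBs, was at 27384, 34157 and 17339 FPKM in the day 10 samples, compared with 15729.5, 21088 and 14151 FPKM in the day 14 samples, with days that overlapped. It was highest in replicate 2 on both days, and *Sec13* was highest in replicate 1 on day 10 and in replicate 2 on day 14.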

How the data were processed

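ECFP+ OBs of 3 samples per day were compared. The authors aligned single-end reads of 75 bases against mm10, using TopHat2 2.0.13, Bowtie2 2.2.3 and SAMtools 0.1.19 and deposited FPKM per gene from Cufflinks 2.2.1. The gene annotation, and how multi-mapped reads were treated, are not given in the sources used here. In 1 file, 25 symbols turned into dates were restored by position. Days were compared with limma 3.58.1 in R 4.3.3 (lmFit and trended eBayes). Input values were log2(FPKM + 0.1) for 19526 genes whose mean exceeded 0.1 FPKM, with Benjamini-Hochberg adjustment. Fold changes are those of FPKM + 0.1, which understates changes of low genes, and intervals are 95% intervals. Single values were compared with two-sided exact permutation tests. The fit was tested on simulated data.

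Depth was estimated from transcripts of 1500 to 8000 bases with at most 0.3 FPKM, assuming fragments of 205 bases, where 74.5% to 79.0% of values were within 0.1 of a whole number of reads. Reads per gene used the longest coding transcript and are approximate.

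The COPII genes and the gene lists were chosen with earlier results of these data known. All 10 COPII genes are named. Of each other list, genes with an unadjusted p under 0.05 from limma are named, and *Sec16a*, *Mia3*, *Ctage5*, *Sec31b*, *Tfg* and *Col1a1* were named in addition after their values were seen. *Cnih1* was matched through an older symbol, and *Mia2* and *Ctage5*, now 1 gene, were both kept. The 50 bases after the start were added to the motif search after the sequences were seen. Alternatives were another pseudocount, filter, scaling and variance model, a replicate block, and leaving out each sample.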

Additional observations from a re-analysis of the deposited data

How the results depend on the processing

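With 3 samples per day, none of the COPII genes reached an adjusted p under 0.05 from limma under any of the 14 alternatives. The number of COPII genes with an unadjusted p under 0.05 was 2, and it was 4 with quantile normalization, 0 without the mean-variance trend and 0 to 2 with 1 sample left out. For the 4 other lists this number was 12, and it was 29 with quantile normalization, 3 without the trend and 5 to 12 with 1 sample left out. The share of all genes tested with an unadjusted p under 0.05 was 10.0%, and it was 11.9% with quantile normalization, 6.86% without the trend and 4.86% to 13.7% with 1 sample left out. Among genes with a mean above 1 FPKM it was 15.3% with all samples. The number of all genes with an adjusted p under 0.05 was 3, and 3 to 8 with 1 sample left out. The number of partner ratios with fully separated days was 1, and 1 to 3 with 1 sample left out. The cause of these changes was not tested, apart from the loss of 1 sample itself.

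The direction of *Sec24a* turned with FPKM scaled to its sum (−0.0034), without replicate 3 of day 10 (−0.0036) and without replicate 2 of day 14 (−0.10). That of *Sec24b* turned without replicate 3 of day 10 (−0.020). *Sar1a* turned without replicate 1 of day 10 (0.0020) or of day 14 (0.071), and *Sar1b* likewise (0.017 and 0.0013). The log2 ratio difference of *Sar1a* to *Sar1b* turned without replicate 1 of day 10 (−0.015), and that of *Sec24a* to *Sec24b* without replicate 3 of day 10 (0.017) or of day 14 (0.0040). With 1 sample left out in turn, the range was −0.10 to 0.12 for *Sec24a*, −0.020 to 0.23 for *Sec24b*, −0.12 to 0.071 for *Sar1a* and −0.23 to 0.017 for *Sar1b*. For the ratios it was −0.015 to 0.16 for *Sar1a* to *Sar1b* and −0.22 to 0.017 for *Sec24a* to *Sec24b*. *Sec13*, *Sec31a*, *Sec24d*, *Sec24c*, *Sec23a* and *Sec23b* were lower on day 14 under all 14 alternatives.

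The replicate numbers gave no sign of paired samples, since samples with the same number deviated from the mean of their day with r of 0.058, −0.0058 and 0.089 across genes. With the replicate number as a block, 2 COPII genes had an unadjusted p under 0.05 and 2 of all genes an adjusted p under 0.05 from limma, 10 genes of the 4 lists had an unadjusted p under 0.05, and the log2 fold change of *Sec13* was −0.64 (adjusted p = 0.438). The exact test over the 3 pairs gave p = 0.25 for Sec23a/Sec23b, the smallest that 3 pairs allow.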
